A study of Macaca fascicularis with 3 samples.

Results

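The 43 collagen chain genes of the annotation, of 26017 features in all, were followed through reconstituted ovaries, aggregates in which germ cells made from cynomolgus monkey embryonic stem cells are cultured with somatic cells of the fetal mouse ovary. The members were every gene whose symbol is COL, a number, A and a number, whatever its level. They comprised 11 fibrillar, 6 type IV, 5 type VI, 3 hexagonal network, 9 FACIT, 4 transmembrane and 2 multiplexin chains, and COL7A1, COL26A1 and COL28A1.

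Collagens are triple-helical proteins of the extracellular matrix, each molecule wound from a trio of chains encoded by the same or different genes. Fibrillar collagens form the interstitial fibres made mainly by mesenchymal cells, type IV forms the network of basement membranes under epithelia, type VI forms beaded microfibrils around cells, and FACIT chains decorate fibrils. In the fetal ovary a basement membrane separates the cords, in which supporting (pregranulosa) cells enclose germ cells, from the stroma between them, and a surface epithelium covers the organ.

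There was 1 library for each embryonic day of the mouse donors, E13.5, E14.5 and E15.5, all with germ cells of the line 15XRi-AGVT#7, which is labelled wildtype and carries TFAP2C-EGFP and DDX4-tdTomato reporters. All germ cells thus come from 1 line, the mouse somatic cells were not labelled by strain or genotype, and the 3 aggregates carry the same label, ag49+52. Germ and mouse cells were sorted apart by reporter fluorescence and cell width, mixed and loaded together on the 10x Chromium 3′ v3.1 system, so the share of each species was set by the sort. The libraries held 2807, 1565 and 3455 barcodes with 44762884, 30607553 and 70850640 unique molecular identifiers (UMIs), here always in the order E13.5, E14.5, E15.5.

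Only monkey genes were counted, so RNA of the mouse cells was seen only as far as its reads map to a monkey gene. Levels are given in CPM, a gene's UMIs per 1000000 UMIs of all genes in a group of barcodes, and can be compared between mouse states for 1 gene, but in mouse cells not between genes, nor between species. COL9A1, COL10A1, COL19A1, COL20A1 and COL21A1 had no UMI in any mouse barcode, which is no sign that mouse cells lack them. Mouse somatic barcodes were those with at least 1000 UMIs and under 1% of them from the 13 mitochondrial genes: 1643, 717 and 1739, with medians of 6457, 6699 and 5325 UMIs. Germ barcodes had at least 10000 UMIs, 2% to 20% mitochondrial UMIs and a UMI of DAZL, DDX4 or TFAP2C: 537, 535 and 1112. The libraries shared barcodes, 199 between E13.5 and E14.5, 643 between E13.5 and E15.5 and 212 between E14.5 and E15.5, 184 of them in all 3. Where E13.5 and another library shared one, the shallower copy held a median of 1.14% and 2.02% of the UMIs of the deeper. No barcode was used from 2 libraries, but 267, 58 and 344 germ barcodes and 0, 0 and 2 mouse barcodes have such a copy. Without them the 4 comparisons of mouse states called the same number of collagens (12, 21, 9 and 17), and those of germ classes called 20 in place of 21 and 12 in place of 14.

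The mouse barcodes were clustered without the collagens and the other matrix genes examined, and clusters were named from marker genes. The INHA-high supporting-like state (590, 303 and 106 barcodes) had 3522, 2335 and 3326 CPM of INHA, the inhibin alpha subunit, and the INHA-low supporting-like state (333, 81 and 369) had 897, 948 and 711. The stromal-like state (TCF21/PDGFRA-positive, 615, 182 and 595) had 821, 924 and 887 CPM of TCF21, a mesenchymal transcription factor. The surface epithelial- or mesothelial-like state (UPK3B-positive, 36, 32 and 233) had 216, 47.5 and 144.7 CPM of the uroplakin UPK3B. The 10 surface epithelial or mesothelial markers summed to 1824, 1835 and 1829 CPM there. They summed to 422, 341 and 589 CPM in the INHA-low and 117, 115 and 78.7 in the INHA-high state. The labels do not name the somatic cell types. Of the other cells of a fetal ovary, the endothelial genes PECAM1 and CDH5 were at 1.2 CPM or less in these 4 states, and the leukocyte gene PTPRC at 3.5 CPM or less, whereas the endothelial gene KDR reached 27.9, 52.7 and 34.5 CPM in the UPK3B-positive state. The 8 blood genes, PTPRC among them, summed to 2.29, 15.9 and 32.8 CPM in the INHA-low state. In the others of these states they summed to 2.38 CPM or less. The 6 perivascular genes summed to 449.9, 268 and 277 CPM in the stromal-like, 164, 422 and 70.1 in the UPK3B-positive, 83.9, 255 and 97.5 in the INHA-low and 17.7, 49.6 and 1.71 in the INHA-high state. Most of this was ACTA2, smooth muscle actin (417, 257 and 262 CPM in the stromal-like and 157, 417 and 64.0 in the UPK3B-positive state). RGS5, which defines pericytes, was at 0 in these 4 states except the stromal-like one at E13.5 (1.19 CPM). The part of perivascular or blood RNA in the collagen differences was not tested. A further 563 barcodes in clusters with markers of more than 1 state, germ genes or too few markers, and 61 LTF/EHF-positive ones, stayed out of the comparisons. No doublet caller was run.

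Each comparison of states was tested in edgeR over 7428 genes, with 1 sum of counts per library and state and the library as a block. The 3 libraries, which differ in stage, served as the repeats, the labels do not say whether they came from separate cultures, and the states were drawn from the same cells that were tested, so a p-value measures how evenly a difference recurs over these libraries. The SE beside an edgeR log2 fold change is that change, without sign, divided by the square root of its F statistic. It is derived from the test, not estimated apart from it. Of the 43 collagens, 23 passed the filter on low counts. Of these, 20 were higher and 1 lower in the stromal-like than in the INHA-low state (31.5% of all genes tested were called, 14.1% higher and 17.4% lower). Between the INHA-high and INHA-low states 7 were higher and 5 lower (13.9% of all genes were called, 7.58% higher and 6.30% lower). Against the INHA-low state the UPK3B-positive state had 7 higher and 2 lower (10.2% of all genes, 5.06% higher and 5.09% lower), and against the stromal-like state it had 0 higher and 17 lower (24.6%, 13.2% higher and 11.4% lower). The most variable genes and the markers were not tested, so these background shares leave out the genes that separate the clusters best. A chain that passed the filter only through a state in which it is high had to differ, so the counts describe the family. Of the 12, 8, 9 and 9 chains with over 3 UMIs in both states in every library, 12, 4, 7 and 6 were called, in the same order. The median log2 fold change of the 23 was 3.49 for stromal-like over INHA-low (all genes -0.02), -0.14 for INHA-high over INHA-low (0.03), 0.51 for UPK3B-positive over INHA-low (-0.04) and -3.11 for UPK3B-positive over stromal-like (-0.03), the last -2.54 when the chains at 0 are set at their bounds. Scaling by total UMIs alone shifts the median of all genes to -0.15 for stromal-like over INHA-low and gives 18 collagens higher and 1 lower there.

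**Figure D1:**
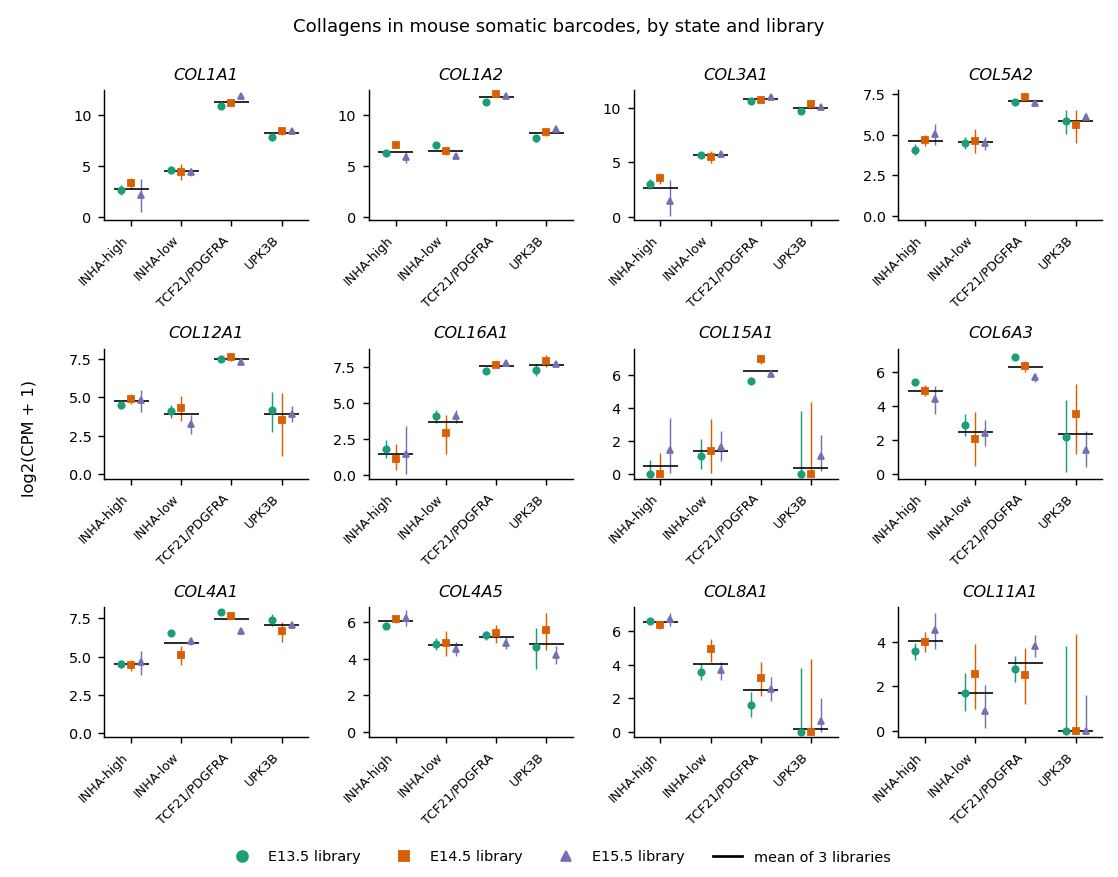
Level of 12 collagens as log2(CPM + 1) in the 4 mouse somatic states (stromal-like as TCF21/PDGFRA), 1 point per library with its exact 95% interval (counting error only) and a line at the mean of the 3 libraries. The stromal-like points are the highest for COL1A1, COL1A2 and COL3A1 in every library, and the INHA-high points for COL8A1.

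COL1A1, COL1A2 and COL3A1, the chains of the interstitial collagens I and III, were higher in the stromal-like than in every other mouse state of the same library. COL1A1, the main chain of type I, was at 1892, 2262 and 3504 CPM there, 219, 343 and 331 in the UPK3B-positive, 23.6, 20.7 and 20.3 in the INHA-low and 5.48, 9.02 and 3.42 in the INHA-high state. The states stood in this order in every library without overlap. The log2 fold change was 6.96 ± 0.18 SE, edgeR adjusted p = 1.0e-21 for stromal-like over INHA-low, 3.74 ± 0.20 SE, edgeR adjusted p = 1.1e-13 for UPK3B-positive over INHA-low, and -3.21 ± 0.15 SE, edgeR adjusted p = 3.8e-15 for UPK3B-positive over stromal-like. COL1A2, the partner chain of type I, was at 2584, 4278 and 3697 CPM in the stromal-like, 212, 322 and 405 in the UPK3B-positive, 136, 87.6 and 65.1 in the INHA-low and 77.3, 138 and 58.2 in the INHA-high state. COL1A2 was higher in the stromal-like and in the UPK3B-positive than in the INHA-low state (5.19 ± 0.24 SE, edgeR adjusted p = 4.5e-16, and 1.77 ± 0.25 SE, edgeR adjusted p = 1.1e-05). The 2 supporting-like states overlapped for COL1A2 (INHA-high over INHA-low -0.18 ± 0.25 SE, edgeR adjusted p = 0.71; called lower at -1.56 with states set by UMIs of single genes), whereas COL1A1 was lower in the INHA-high state in every library (-1.64 ± 0.30 SE, edgeR adjusted p = 0.00023). COL1A1 UMIs per COL1A2 UMI were 0.0708, 0.0652 and 0.0588 in the INHA-high state, 0.173, 0.236 and 0.311 in the INHA-low, 0.732, 0.529 and 0.948 in the stromal-like and 1.03, 1.07 and 0.817 in the UPK3B-positive state. The lowest COL1A1 count behind these ratios was 2 UMIs, in the INHA-high state.

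COL3A1, which forms the homotrimeric type III found in reticular fibres, was at 1540.0, 1682 and 2050.0 CPM in the stromal-like and 825, 1281 and 1044 in the UPK3B-positive state, but only at 50.3, 44.6 and 52.2 in the INHA-low and 7.01, 10.9 and 1.71 in the INHA-high state. It rose by 4.38 ± 0.16 SE, edgeR adjusted p = 7.7e-18 on the log2 scale in the UPK3B-positive over the INHA-low state, and its difference from the stromal-like state was -0.86 ± 0.13 SE, edgeR adjusted p = 5.2e-06. The UPK3B-positive state held more COL3A1 for its COL1A1 than the stroma: COL1A1 UMIs per COL3A1 UMI were 0.266, 0.267 and 0.317 there and 1.23, 1.34 and 1.71 in the stromal-like state, 2 ranges that do not overlap. COL3A1 was also lower in the INHA-high than in the INHA-low state (-2.66 ± 0.24 SE, edgeR adjusted p = 6.5e-09).

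Part of the type I and III signal outside the stroma lay at the level that stromal marker genes reached in the same barcodes. As a percentage of the stromal-like mean, COL1A1 was at 0.844%, COL1A2 at 2.74% and COL3A1 at 2.79% in the INHA-low state, where TCF21 was at 5.71% and PDGFRA at 6.35%. In the INHA-high state COL1A1 and COL3A1 were at 0.234% and 0.372%, TCF21 and PDGFRA at 0.697% and 0.934%, and COL1A2 at 2.59%. COL1A1 and COL3A1 were thus below both stromal markers in both supporting-like states, and no expression by these cells is read from them. TCF21 differed between the 2 states in the same direction (110.2, 15.9 and 24.2 against 5.70, 7.51 and 5.13 CPM). The summed 11 stromal markers, which include genes that supporting cells also express, were at 456, 439.8 and 305 CPM in the INHA-low and 419, 491 and 305 in the INHA-high state. Whether stromal or surface epithelial RNA accounts for the lower COL1A1 and COL3A1 of the INHA-high state was not tested. In the UPK3B-positive state COL1A1 (11.7%) and COL1A2 (8.89%) were at or below TCF21 (18.0%), whereas COL3A1 (59.8%), COL4A1 (73.9%) and COL16A1 (106%) were far above it. With states set by UMIs of single genes, whose INHA-low gate took in 212 barcodes of the stromal-like clusters, COL1A1 and COL1A2 were no longer higher in the UPK3B-positive than in the INHA-low state (log2 -0.38 and -0.72, neither called), and the COL1A2 call also ended at a clustering resolution of 0.5 (0.62).

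**Figure D2:**
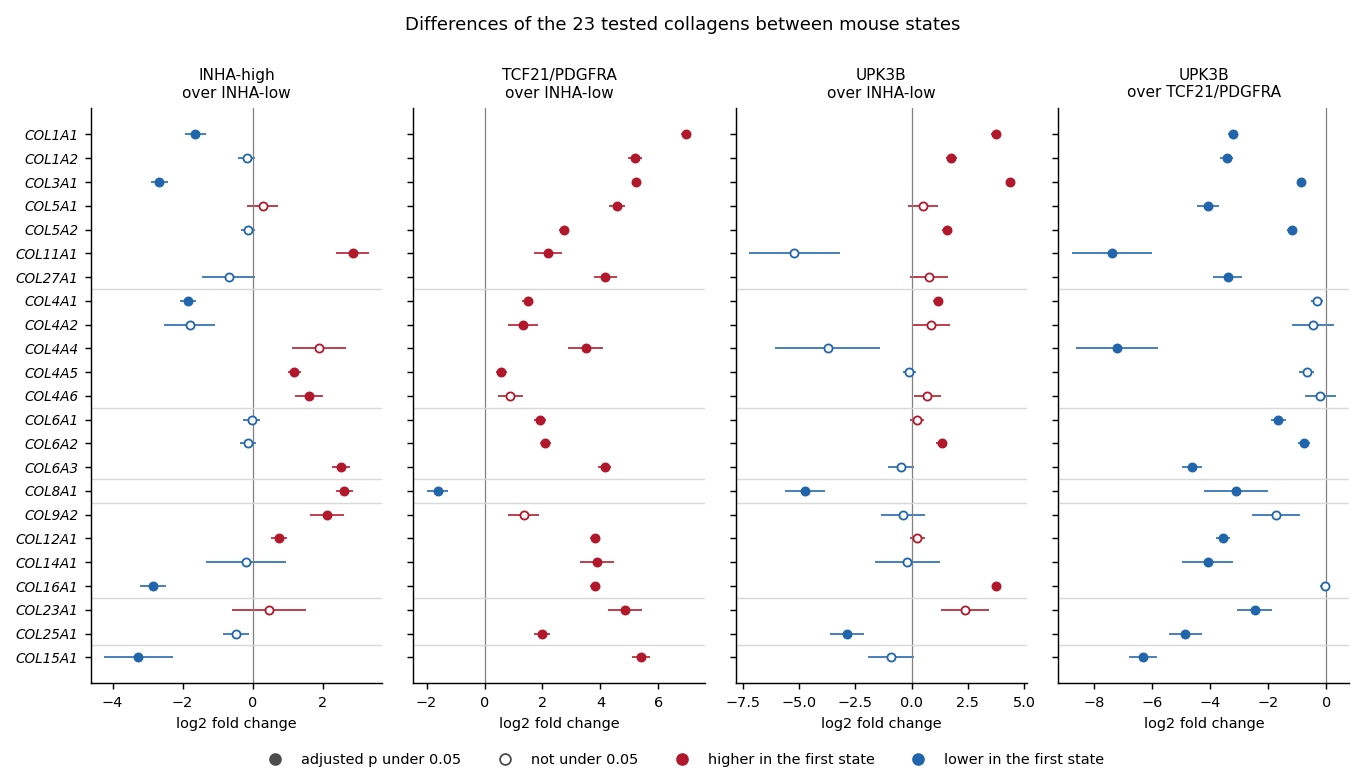
Log2 fold changes (x axis) of the 23 tested collagens with bars of 1 SE in the 4 comparisons of mouse states, red where higher and blue where lower in the first state; filled points had an edgeR adjusted p under 0.05. Most chains lie to the right for stromal-like over INHA-low and to the left for UPK3B-positive over stromal-like, where COL16A1 sits at -0.05.

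The minor fibrillar chains followed the stroma with 1 exception. COL5A1 and COL5A2, chains of type V, which nucleates type I fibrils, were at 89.5, 73.5 and 46.1 and at 130.2, 159 and 124 CPM in the stromal-like state, against 3.05, 4.78 and 2.59 and 21.3, 23.9 and 21.1 in the INHA-low state. Both were higher in the stromal-like state (4.58 ± 0.28 SE, edgeR adjusted p = 1.8e-13 for COL5A1 and 2.75 ± 0.17 SE, edgeR adjusted p = 1.8e-13 for COL5A2). COL5A2 was also higher in the UPK3B-positive (55.7, 47.5 and 68.5 CPM) than in the INHA-low state (1.57 ± 0.22 SE, edgeR adjusted p = 8.8e-06; not called without E15.5, 1.22, or with states set by single genes, 0.67), whereas COL5A1 was at 0, 5.27 and 3.90 CPM there, below the stroma (-4.08 ± 0.38 SE, edgeR adjusted p = 1.8e-09). COL27A1, a fibrillar chain of cartilage, was at 19.3, 24.9 and 23.04 CPM in the stromal-like and at most 3.48 CPM in any other state (stromal-like over INHA-low 4.17 ± 0.40 SE, edgeR adjusted p = 2.9e-09).

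COL11A1, the type XI chain known from cartilage, was the exception. It was at 10.95, 15.0 and 22.2 CPM in the INHA-high and 2.29, 4.78 and 0.863 in the INHA-low state, without overlap (2.85 ± 0.46 SE, edgeR adjusted p = 9.4e-05). The stromal-like state was at 5.94, 4.74 and 13.2 CPM, and its call over the INHA-low state (2.19) was lost without E15.5 (1.09). The UPK3B-positive state had no COL11A1 UMI among 2273342, which puts it below 1.32 CPM and makes it at least 6.02-fold lower than the stromal-like mean (not called without E15.5, which holds most UPK3B-positive barcodes). Of the other fibrillar chains, COL2A1, COL5A3, COL11A2 and COL24A1 did not pass the filter, with at most 5.13 CPM in any of the 4 states.

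Type IV, the collagen of basement membranes, was split between states by chain pair. COL4A1 was at 242, 204 and 103 CPM in the stromal-like, 171, 100.2 and 135.3 in the UPK3B-positive, 92.2, 33.5 and 64.3 in the INHA-low and 21.7, 20.7 and 24.0 in the INHA-high state. The INHA-high values lay below all others (-1.84 ± 0.24 SE, edgeR adjusted p = 2.0e-06 for INHA-high over INHA-low), and stromal-like over INHA-low was 1.48 ± 0.18 SE, edgeR adjusted p = 2.3e-07. The UPK3B-positive state was above the INHA-low state as well (1.17 ± 0.22 SE, edgeR adjusted p = 0.00033), and it overlapped the stromal-like state for COL4A1 (-0.31 ± 0.20 SE, edgeR adjusted p = 0.29). COL4A2, its partner chain in the ubiquitous type IV molecule and its neighbour across a shared promoter, gave few mouse UMIs, with 7.73, 9.49 and 2.06 CPM in the stromal-like and 4.57, 0 and 0.863 in the INHA-low state (1.34 ± 0.52 SE, edgeR adjusted p = 0.047; not called without E14.5, 0.98, or E15.5, 1.31). The COL4A1 call for UPK3B-positive over INHA-low was lost without the library block (1.09) and at a clustering resolution of 0.5 (0.87). For UPK3B-positive over stromal-like it was -0.76, and called, without E15.5.

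COL4A5 and COL4A6, a second pair of neighbouring genes whose chains join in the basement membranes of some epithelia, went the other way. COL4A5 was at 55.9, 71.0 and 75.3 CPM in the INHA-high state, above all 9 values of the other states, and at 27.1, 28.7 and 22.4 in the INHA-low state (1.18 ± 0.18 SE, edgeR adjusted p = 2.8e-05). COL4A6 was at 10.95, 15.0 and 24.0 CPM in the INHA-high and 4.57, 4.78 and 3.88 in the INHA-low state (1.61 ± 0.41 SE, edgeR adjusted p = 0.0069). The call for COL4A6 was lost without E15.5 (1.36), and those for COL4A6 (0.58) and COL4A5 (0.37) with states set by single genes. COL4A1 and COL4A5 therefore differed between the supporting-like states in opposite directions, both without overlap. COL4A5 in the stromal-like state, 38.0, 41.5 and 28.4 CPM, was slightly above the INHA-low state (0.58 ± 0.19 SE, edgeR adjusted p = 0.018), a call lost without E13.5 (0.54) and with states set by single genes (-0.11). COL4A4 was at 5.94, 5.93 and 11.1 CPM in the stromal-like state and, with no UMI in the UPK3B-positive state, at least 5.80-fold lower there, also not called without E15.5. COL4A3 did not pass the filter.

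Of type VI, COL6A3, the long chain that completes the molecule, differed between the supporting-like states, and COL6A1 and COL6A2 did not pass the test. COL6A1 was at 46.9, 21.8 and 29.1 CPM in the INHA-high and 30.5, 25.5 and 33.2 in the INHA-low state (-0.03 ± 0.24 SE, edgeR adjusted p = 0.96), and COL6A2 at 42.1, 21.8 and 44.5 and 39.3, 22.3 and 34.5 (-0.14 ± 0.22 SE, edgeR adjusted p = 0.75). COL6A3 was at 41.8, 29.3 and 20.5 CPM in the INHA-high and 6.48, 3.19 and 4.31 in the INHA-low state (2.51 ± 0.26 SE, edgeR adjusted p = 5.5e-08), a call that ended with states set by single genes (0.18). All 3 chains were highest in the stromal-like state over the mean of libraries, at 154, 114 and 60.5 CPM for COL6A1, 182, 126 and 93.8 for COL6A2 and 119, 80.6 and 51.4 for COL6A3. Over the INHA-low state the stromal-like state was higher by 1.90, 2.09 and 4.15 on the log2 scale, all 3 called. The UPK3B-positive state had 94.0, 142 and 57.9 CPM of COL6A2, more than the INHA-low state (1.34 ± 0.24 SE, edgeR adjusted p = 0.0003; not called at a clustering resolution of 0.5, 0.40), with COL6A3 at only 3.48, 10.55 and 1.67 CPM. These COL6A3 values are at or below the level of 3 UMIs in each UPK3B-positive library (10.4, 15.8 and 1.67 CPM). The log2 fold change of COL6A3 for UPK3B-positive over stromal-like was -4.62 ± 0.35 SE, edgeR adjusted p = 3.0e-11. COL6A1 UMIs per COL6A2 UMI were 0.407, 0.444 and 0.413 in the UPK3B-positive state, below the 0.847, 0.906 and 0.645 of the stromal-like state.

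COL8A1, a short chain of the hexagonal network known from Descemet's membrane and vessel walls, marked the INHA-high state. It was at 93.1, 78.5 and 101 CPM there, 11.1, 28.7 and 11.6 in the INHA-low, 2.08, 8.30 and 4.94 in the stromal-like and 0, 0 and 0.557 in the UPK3B-positive state. Every INHA-high value was above every other value (2.61 ± 0.23 SE, edgeR adjusted p = 6.5e-09 for INHA-high over INHA-low). It was the only tested collagen that was lower in the stromal-like than in the INHA-low state (-1.62 ± 0.38 SE, edgeR adjusted p = 0.0012), a call lost at a clustering resolution of 2 (-1.24) and with states set by single genes (-0.90). Among the INHA-low barcodes COL8A1 came mainly from 1 cluster of 3: 50.2 CPM in the cluster with 1531 CPM of INHA, which lies nearest to the dividing value of 2155, and 3.96 and 1.46 CPM in the clusters with 800 and 430.2 CPM of INHA. By pooled counts, 1 UMI against 74, it was 30.2-fold lower (95% interval 5.26 to 1209, counting error only) in the UPK3B-positive than in the INHA-low state, a call lost without E15.5 and at a clustering resolution of 2 (-1.44). In the 2 INHA-high clusters it was at 70.9 and 95.2 CPM.

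Of the FACIT chains, COL12A1, COL14A1 and COL16A1 were higher in the stromal-like than in the INHA-low state. COL16A1 was higher in the UPK3B-positive state too. COL9A2 was higher in the INHA-high than in the INHA-low state. COL12A1 was at 181, 196 and 157 CPM in the stromal-like and 16.0, 19.1 and 8.63 in the INHA-low state (3.81 ± 0.17 SE, edgeR adjusted p = 4.5e-16). In the UPK3B-positive state COL12A1 was at 17.4, 10.55 and 14.47 CPM (-3.55 ± 0.23 SE, edgeR adjusted p = 1.3e-12 against the stromal-like state). COL14A1 was at 6.54, 19.0 and 6.99 CPM in the stromal-like state and no higher than 1.59 CPM in the INHA-low state, where it rested on 3 UMIs. By pooled counts it was 15.4-fold higher (95% interval 4.99 to 76.9, counting error only) in the stromal-like state. COL16A1 was at 149, 200.4 and 218 CPM in the stromal-like and 157, 243 and 203 in the UPK3B-positive state. These 2 states overlapped (-0.05 ± 0.15 SE, edgeR adjusted p = 0.88), and both were far above the 15.6, 6.37 and 15.53 CPM of the INHA-low state (3.76 ± 0.20 SE, edgeR adjusted p = 1.1e-13 for UPK3B-positive over INHA-low). COL16A1 was lower in the INHA-high state (2.41, 1.13 and 1.71 CPM, -2.84 ± 0.37 SE, edgeR adjusted p = 2.4e-06), where it was at 0.924% of the stromal-like level, against 6.61% in the INHA-low state, both near TCF21.

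COL9A2, a chain of the type IX that coats cartilage fibrils, was at 10.7, 7.51 and 11.98 CPM in the INHA-high and 1.52, 1.59 and 2.59 in the INHA-low state (2.12 ± 0.49 SE, edgeR adjusted p = 0.003). The stromal-like values, 5.05, 9.49 and 2.47 CPM, overlapped both. COL12A1 differed less between the supporting-like states, with 21.9, 28.6 and 27.4 CPM in the INHA-high state (0.75 ± 0.22 SE, edgeR adjusted p = 0.022). This call was lost without E14.5 (0.71) or E15.5 (0.44) and turned to -0.18 with states set by single genes. The COL9A2 call was lost without E13.5 (1.59) and at a clustering resolution of 0.5 (1.56).

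COL15A1, a multiplexin that sits at the outer face of basement membranes, was at 49.03, 122 and 66.6 CPM in the stromal-like state and at most 2.16 CPM in any other. By pooled counts, 2 UMIs against 430, it was 73.6-fold lower (95% interval 20.3 to 609.8, counting error only) in the UPK3B-positive state. It was called lower in the INHA-high than in the INHA-low state (-3.26 ± 0.98 SE, edgeR adjusted p = 0.024), on 1 UMI against 9 and with overlapping libraries, and not without E13.5 (-2.85) or E14.5 (-2.59). By DESeq2 this difference was -3.33 with an SE of 1.26 and was not called. Of the transmembrane chains, COL23A1 was at 20.2, 10.7 and 12.3 CPM in the stromal-like state and COL25A1 at 13.4, 45.1 and 25.1. COL23A1 was 29.9-fold higher (95% interval 9.97 to 147, counting error only) than in the INHA-low state by pooled counts, and COL25A1 differed by 1.99 ± 0.28 SE, edgeR adjusted p = 2.0e-06. In the UPK3B-positive state COL25A1 had 2 UMIs and was 6.94-fold lower (95% interval 1.78 to 59.6, counting error only) than in the INHA-low state, which was not called without E15.5.

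The states differed in how much collagen they carried and in its make-up. Collagen UMIs were 0.747, 0.970 and 1.03% of all UMIs in the stromal-like, 0.185, 0.262 and 0.233% in the UPK3B-positive, 0.0487, 0.0518 and 0.0510% in the INHA-high and 0.0502, 0.0376 and 0.0383% in the INHA-low state. Fibrillar chains made up 83.9, 87.5 and 91.6% of these in the stromal-like and 71.2, 76.3 and 79.6% in the UPK3B-positive state. In the INHA-low state they made up 47.6, 50.4 and 43.1% and in the INHA-high state 25.4, 39.5 and 25.5%. The INHA-high state held 19.1, 15.2 and 19.8% of its collagen UMIs in hexagonal network chains, nearly all COL8A1, against 2.20, 7.63 and 3.04% in the INHA-low state. The shares are those of UMIs that map to monkey genes and carry the mapping rate of each chain. The stromal-like state was the highest in every library for 14 of the 23 chains tested, and the INHA-high state for 4, COL4A5, COL4A6, COL8A1 and COL11A1. No such count was made over all genes tested, so it describes these chains and is no result about collagens as a family.

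**Figure D3:**
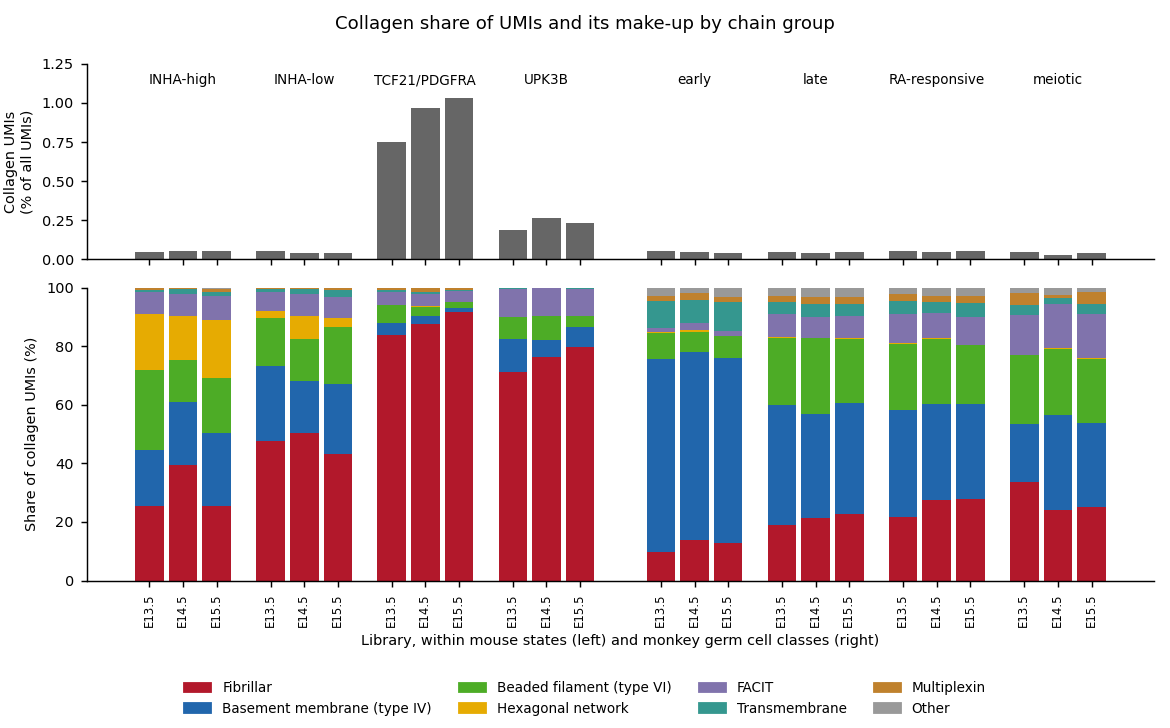
Collagen UMIs as a percentage of all UMIs (upper bars) and the share of each chain group in them (lower stacked bars, percent) in the mouse states and germ classes, 1 bar per library; RA stands for retinoic acid. Fibrillar chains take most of the stromal-like and UPK3B-positive bars, and type IV most of the early germ class bars.

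The stromal-like state was itself uneven. It held 5 clusters, led by CA3, IGFBP7 and TCF21 (574 barcodes), by PTN and PENK (57), by DLK1, ACTA2 and FBLN1 (346), by HOXD10 and OSR2 (69) and by STC1 and ENPP2 (346), and these are described here without a test. COL1A1 was highest in the PTN and PENK cluster (7443 CPM) and lowest in the STC1 and ENPP2 cluster (1005), and COL3A1 likewise (5712 and 925). The same PTN and PENK cluster had the most COL14A1 (75.6 CPM) and COL15A1 (189). COL4A1 (307 CPM), COL6A1 (212), COL6A2 (272) and COL6A3 (147) peaked in the DLK1, ACTA2 and FBLN1 cluster. COL25A1 (41.3 CPM) and COL23A1 (25.6) peaked in the CA3, IGFBP7 and TCF21 cluster. COL11A1 peaked in the HOXD10 and OSR2 cluster (48.8 CPM), which had no COL14A1 UMI and 5.13 CPM of COL15A1. A smaller cluster's level rests on fewer counts: COL11A1 there had 19 UMIs.

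With 1 library per embryonic day, differences between days have no replicate check and were not tested. A collagen was named where CPM + 1 differed at least 2-fold and either library reached 20 CPM, log2 ratios are of CPM + 1, and intervals are exact 95% intervals of the ratio of CPM, which cover counting error only. Over all mouse barcodes 0 of 14 chains differed so between E13.5 and E14.5, where 0.962% of all genes were higher and 2.74% lower at E14.5. At E15.5 3 of 13 were lower and 0 higher than at E13.5 (1.24% and 1.16% of all genes by this rule), and 1 of 13 was higher and 0 lower than at E14.5 (4.79% and 1.41% of all genes). COL1A1 was at 589, 418 and 867 CPM, with a log2 ratio of 1.05 (95% interval 0.99 to 1.119) for E15.5 over E14.5. COL5A1 (28.9, 16.4 and 12.8 CPM), COL6A1 (74.8, 40.7 and 36.4) and COL6A3 (55.1, 31.2 and 21.5) were lower at E15.5 than at E13.5. Their log2 ratios were -1.116 (95% interval -1.47 to -0.89), -1.02 (95% interval -1.21 to -0.87) and -1.32 (95% interval -1.57 to -1.14). The mix of states differed between libraries, and with equal weight to each state COL6A3 alone stayed past the rule, at -1.09, with COL1A1 at 0.55, COL5A1 at -0.66 and COL6A1 at -0.86. The share of states was set by the sort and the loading as well as by the aggregates, and these cannot be told apart.

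Within the stromal-like state COL15A1 and COL25A1 were higher at E14.5 than at E13.5 (2 of 16 chains, 2.67% of all genes higher), and COL4A1, COL6A1 and COL6A3 were lower at E15.5 than at E13.5 (3 of 16, 1.96% of all genes lower). The log2 ratio was 1.30 (95% interval 0.95 to 1.68) for COL15A1 and 1.68 (95% interval 1.09 to 2.41) for COL25A1. It was -1.22 (95% interval -1.44 to -1.03) for COL4A1, -1.34 (95% interval -1.62 to -1.08) for COL6A1 and -1.19 (95% interval -1.51 to -0.92) for COL6A3. Different clusters held most of this state at each day. At E13.5 they were the CA3, IGFBP7 and TCF21 cluster (244 of 615 barcodes) and the DLK1, ACTA2 and FBLN1 cluster (242), at E14.5 the former (142 of 182), and at E15.5 the STC1 and ENPP2 cluster (262 of 595) and the CA3, IGFBP7 and TCF21 cluster (188).

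Within single clusters COL6A1 and COL6A3 were lower at E15.5 in each of the 4 clusters with 20 barcodes at both days, and COL4A1 in 2 of them. COL6A1 went from 115 CPM at E13.5 to 57.8 at E15.5 in the CA3, IGFBP7 and TCF21 cluster, from 237 to 126 in the DLK1, ACTA2 and FBLN1 cluster, from 79.5 to 34.0 in the STC1 and ENPP2 cluster, and from 77.4 to 59.2 in the HOXD10 and OSR2 cluster. COL6A3 went from 103 to 44.7, from 163 to 86.6, from 86.2 to 51.0 and from 40.5 to 16.9 CPM in the same order of clusters, the last on 13 UMIs in all. COL4A1 went from 375 to 99.7 CPM in the DLK1, ACTA2 and FBLN1 cluster and from 208 to 142 in the CA3, IGFBP7 and TCF21 cluster, but from 37.6 to 48.7 in the STC1 and ENPP2 and from 122 to 127 in the HOXD10 and OSR2 cluster.

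COL1A1, under the rule over the whole stromal-like state (0.89, 95% interval 0.84 to 0.94 for E15.5 over E13.5), was higher at E15.5 in each of the same 4 clusters. It went from 2209.5 to 4224 CPM in the CA3, IGFBP7 and TCF21 cluster, from 1886 to 4590.4 in the DLK1, ACTA2 and FBLN1 cluster, from 1603 to 5433 in the HOXD10 and OSR2 cluster, and from 614 to 1193 in the STC1 and ENPP2 cluster. The cluster with the least COL1A1, STC1 and ENPP2, went from 79 of 615 barcodes of the state at E13.5 to 262 of 595 at E15.5, and the cluster with the most, PTN and PENK, from 6 to 27. COL15A1 and COL25A1 were higher at E14.5 than at E13.5 in the CA3, IGFBP7 and TCF21 cluster too, with 71.5 and 122 CPM of COL15A1 and 26.3 and 52.7 CPM of COL25A1.

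**Figure D4:**
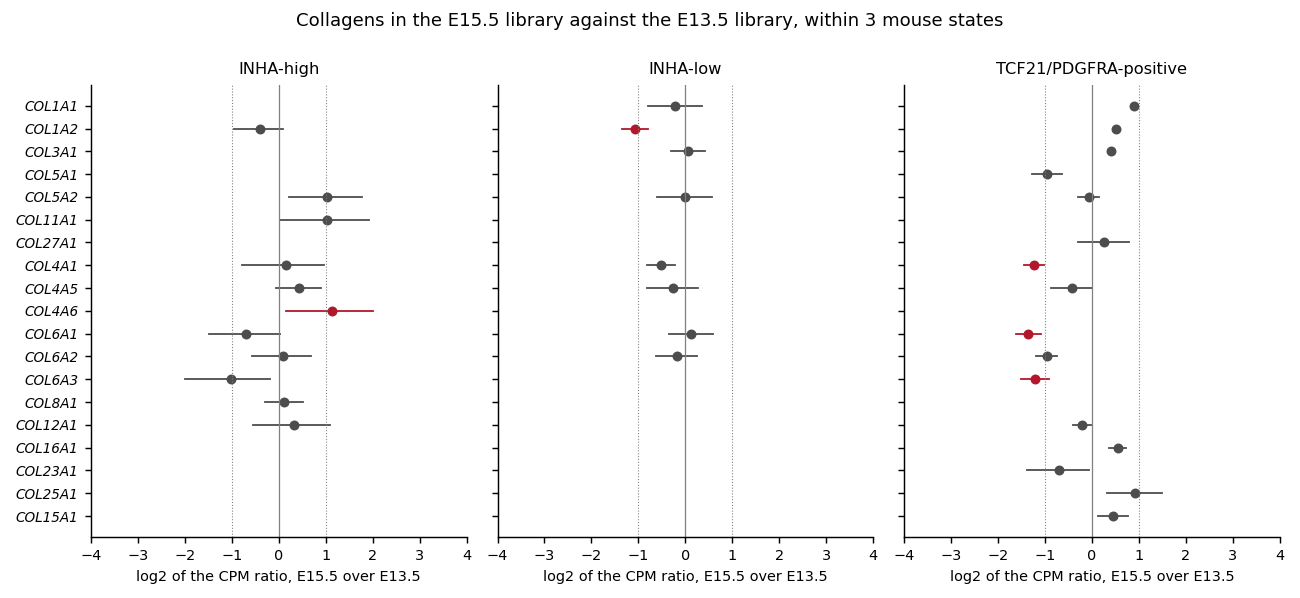
Log2 ratio of CPM between E15.5 and E13.5 with exact 95% intervals (counting error only) for chains with at least 20 CPM in 1 of the libraries, in 3 mouse states, with dotted lines at 2-fold. Red points are past the 2-fold rule: COL4A1, COL6A1 and COL6A3 in the stromal-like state, COL4A6 in the INHA-high and COL1A2 in the INHA-low state. The rule adds 1 to each CPM and the points do not, so a dark point can lie on a dotted line.

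In the supporting-like states 8 to 11 chains reached 20 CPM in either library of a pair, against 15 or 16 in the stromal-like state. In the INHA-high state, with 9, 11 and 11 such chains for E14.5 over E13.5, E15.5 over E13.5 and E15.5 over E14.5, COL6A1 was lower at E14.5 than at E13.5 (-1.07, 95% interval -1.55 to -0.68; 4.70% of all genes lower). COL4A6 was higher at E15.5 than at E13.5 (1.06, 95% interval 0.16 to 2.01; 1.16% higher). COL1A2 was lower at E15.5 than at E14.5 (-1.23, 95% interval -1.80 to -0.74; 1.69% lower). In the INHA-low state, with 9, 8 and 9 such chains, COL4A1 was lower at E14.5 than at E13.5 (-1.44, 95% interval -2.18 to -0.82; 6.80% lower). COL1A2 was lower at E15.5 than at E13.5 there (-1.06, 95% interval -1.35 to -0.79; 1.80% lower), but its clusters differed. It went from 221 to 35.5 CPM in the cluster led by CELA1 and TYROBP and from 34.4 to 74.0 in the cluster led by CELA3B and FST. COL8A1 was higher at E14.5 in the INHA-low state than at E13.5 (1.30, 95% interval 0.44 to 2.27; 1.57% higher) and than at E15.5 (E15.5 over E14.5 -1.23 (95% interval -2.21 to -0.35); 3.69% lower). The cluster that carries COL8A1 in this state, led by CTGF and ANKH, was at 49.9, 51.4 and 49.7 CPM and made up 65 of 333, 33 of 81 and 94 of 369 barcodes. The UPK3B-positive state, with under 50 barcodes in 2 libraries, was not compared between days.

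In monkey germ cells type IV held the largest share of collagen UMIs in every library of each class except the meiotic-like one. Germ barcodes were clustered in the same way into early oogonia-like (62, 119 and 218 barcodes), late oogonia-like (247, 210 and 389), retinoic acid-responsive (161, 99 and 257) and meiotic-like (19, 26 and 55) classes; the labels call all germ cells early oogonia. POU5F1, a pluripotency factor of early oogonia, was at 1199, 1684 and 1301 CPM in the early class and 10.2, 23.4 and 15.8 in the late class. By mean level over all germ barcodes the 5 leading chains were COL4A5 (74.7, 58.3 and 59.2 CPM), COL4A1 (60.5, 66.8 and 61.0), COL6A2 (69.7, 55.9 and 60.1), COL4A2 (59.4, 38.4 and 51.8) and COL2A1 (26.6, 24.2 and 28.4), and 33 of the 43 passed the filter. Collagen UMIs were 0.0491, 0.0434 and 0.0422% of all UMIs in the early, 0.0454, 0.0399 and 0.0428% in the late class and 0.0534, 0.0475 and 0.0537% in the retinoic acid-responsive class. No chain was past the 2-fold rule between the libraries over all germ barcodes, of 7, 7 and 6 chains over 20 CPM (over all genes 0.256% were higher and 0.242% lower at E14.5 than at E13.5, 0.0529% and 0.185% at E15.5 than at E13.5, and 0.135% and 0.162% at E15.5 than at E14.5).

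The late class had 10 chains higher and 11 lower than the early class, in edgeR over 13625 genes of which 68.4% were called (34.1% higher and 34.3% lower), and the retinoic acid-responsive class had 12 higher and 2 lower than the late class (38.0% of all genes called, 17.6% higher and 20.4% lower). A share of called chains near that of all genes is no result about collagens. The classes differ in cell state throughout, and scaling matters here: with scaling by total UMIs alone the median of all genes is 0.49 for late over early (0.01 with the scaling used), and the split of collagens becomes 19 higher and 8 lower. The median of the 33 chains was 0.15 for late over early and 0.27 for retinoic acid-responsive over late (all genes 0.01 and -0.01). Of the 22 and 26 chains with over 3 UMIs in both classes in every library, 15 and 14 were called.

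Type IV fell from the early to the late class. COL4A1 was at 119, 125 and 104 CPM in the early, 43.5, 41.5 and 44.1 in the late class, 65.1, 60.7 and 60.7 in the retinoic acid-responsive and 32.9, 41.5 and 45.8 in the meiotic-like class. The early values were all above the rest (-1.90 ± 0.08 SE, edgeR adjusted p = 1.8e-12 for late over early). COL4A2 was at 89.5, 54.9 and 66.3 CPM in the early and 59.2, 34.9 and 52.4 in the late class (-0.99 ± 0.09 SE, edgeR adjusted p = 1.7e-08), with overlap between libraries but lower in the late class in each of the 3. COL4A1 rose again in the retinoic acid-responsive over the late class (0.46 ± 0.09 SE, edgeR adjusted p = 0.0005), and COL4A2 did not pass (-0.23 ± 0.09 SE, edgeR adjusted p = 0.057; called lower without E14.5, -0.26, and without shared barcodes, -0.31). COL4A1 UMIs per COL4A2 UMI were accordingly 1.33, 2.29 and 1.57 in the early, 0.735, 1.19 and 0.843 in the late class and 1.34, 1.85 and 1.24 in the retinoic acid-responsive class, lowest in the late class in every library. COL4A5 was lower too (101, 83.7 and 82.5 CPM in the early and 72.1, 54.5 and 55.0 in the late class, -1.05 ± 0.07 SE, edgeR adjusted p = 6.0e-10), and so was COL4A6 (12.5, 14.4 and 14.53 and 11.4, 9.39 and 10.7 CPM, -0.89 ± 0.14 SE, edgeR adjusted p = 1.6e-05), while COL4A3 and COL4A4 had at most 3.04 CPM in any class. All 4 calls hold with scaling by total UMIs alone, at smaller log2 fold changes (-1.42, -0.51, -0.56 and -0.40 for COL4A1, COL4A2, COL4A5 and COL4A6). Type IV made up 65.7, 64.2 and 63.3% of collagen UMIs in the early and 41.0, 35.2 and 37.9% in the late class.

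Of the 5 tested type VI chains 3 were higher in the late class, COL6A2, COL6A3 and COL6A5, and 0 were lower. Over all genes 34.1% were higher and 34.3% lower. COL6A2 was at 19.8, 16.6 and 17.6 CPM in the early, 72.3, 68.8 and 65.4 in the late class and 94.3, 84.0 and 89.2 in the retinoic acid-responsive class (1.45 ± 0.09 SE, edgeR adjusted p = 7.0e-11 for late over early). COL6A1, which pairs with it in every type VI molecule, did not pass for late over early (21.9, 11.4 and 10.54 against 24.3, 27.3 and 21.8 CPM, 0.34 ± 0.15 SE, edgeR adjusted p = 0.0504) and then fell in the retinoic acid-responsive class (13.1, 14.53 and 10.8 CPM, -1.03 ± 0.15 SE, edgeR adjusted p = 5.3e-05). COL6A1 UMIs per COL6A2 UMI went from 1.11, 0.687 and 0.599 in the early to 0.336, 0.397 and 0.334 in the late class and 0.139, 0.173 and 0.121 in the retinoic acid-responsive class, 3 ranges that do not overlap. COL6A5 had no UMI in the early class among 22252513 UMIs, below 0.135 CPM, and was at 1.49, 1.65 and 1.59 CPM in the late class, at least 11.7-fold higher. COL6A3 was higher in the late class as well (1.35 ± 0.31 SE, edgeR adjusted p = 0.00074). COL6A6 did not pass (-0.65 ± 0.37 SE, edgeR adjusted p = 0.13).

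COL2A1, the type II chain of cartilage, was at 6.12, 7.55 and 6.23 CPM in the early, 26.1, 25.1 and 32.5 in the late class and 38.9, 51.6 and 48.0 in the retinoic acid-responsive class. The 3 classes did not overlap (1.65 ± 0.15 SE, edgeR adjusted p = 1.7e-08 for late over early and 0.62 ± 0.10 SE, edgeR adjusted p = 0.00019 for retinoic acid-responsive over late). The type IX chains, which coat type II fibrils, were also higher in the late class, COL9A2 at 3.54, 3.87 and 4.51 against 0.471, 0.168 and 0.415 CPM (3.001 ± 0.39 SE, edgeR adjusted p = 2.1e-06) and COL9A3 at 8.93, 7.46 and 6.88 against 1.88, 0.839 and 0.747 CPM (2.41 ± 0.27 SE, edgeR adjusted p = 2.7e-07). COL11A2, a type XI chain, was at 1.18, 0.335 and 0.332 CPM in the early, 3.60, 3.49 and 3.51 in the late class, 7.39, 5.13 and 9.99 in the retinoic acid-responsive and 19.8, 11.1 and 17.3 in the meiotic-like class. It was higher at each tested step (2.34 ± 0.42 SE, edgeR adjusted p = 8.3e-05 and 1.08 ± 0.23 SE, edgeR adjusted p = 0.0013), and the meiotic-like class, which had too few barcodes for a test, was above all other values. COL19A1, a FACIT chain, was at 0, 0.671 and 0.249 CPM in the early and 2.29, 1.94 and 2.14 in the late class (2.23 ± 0.51 SE, edgeR adjusted p = 0.00089). COL5A2 was at 4.48, 4.36 and 5.23 and 20.6, 13.9 and 20.4 CPM (1.46 ± 0.17 SE, edgeR adjusted p = 4.8e-07), and COL14A1 was the remaining chain called higher in the late class (0.80 on the log2 scale; 0.56 and not called without E15.5). Of the other chains known from cartilage, COL11A1 (-0.83 ± 0.57 SE, edgeR adjusted p = 0.2) and COL27A1 (0.15 ± 0.21 SE, edgeR adjusted p = 0.53) did not pass.

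The chains that fell beside type IV were led by COL5A3, COL17A1 and COL23A1. COL5A3, a type V chain, was at 6.83, 5.37 and 5.89 CPM in the early and 0, 0.194 and 0.0911 in the late class, where it had 4 UMIs (-6.45 ± 0.46 SE, edgeR adjusted p = 8.1e-10). COL17A1, a transmembrane chain of hemidesmosomes, was at 2.12, 1.01 and 2.24 and 0.496, 0.291 and 0.0911 CPM (-3.32 ± 0.51 SE, edgeR adjusted p = 1.4e-05). COL23A1, another transmembrane chain, was at 37.7, 31.4 and 35.4 CPM in the early and 11.8, 12.4 and 10.8 in the late class (-2.07 ± 0.11 SE, edgeR adjusted p = 9.8e-12). COL7A1, COL15A1 and COL5A1 were called lower as well (-0.96, -0.66 and -0.57), but all 3 calls are lost with scaling by total UMIs alone. COL1A2 was called lower (2.83, 12.7 and 7.97 against 1.18, 8.14 and 4.01 CPM, -1.39 ± 0.32 SE, edgeR adjusted p = 0.00083), but not by DESeq2, and its germ level is in the range of mouse marker genes, as given further on. COL15A1 was not called without E14.5 (-0.49) or E15.5 (-0.76), nor COL5A1 without E15.5 (-0.32).

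**Figure D5:**
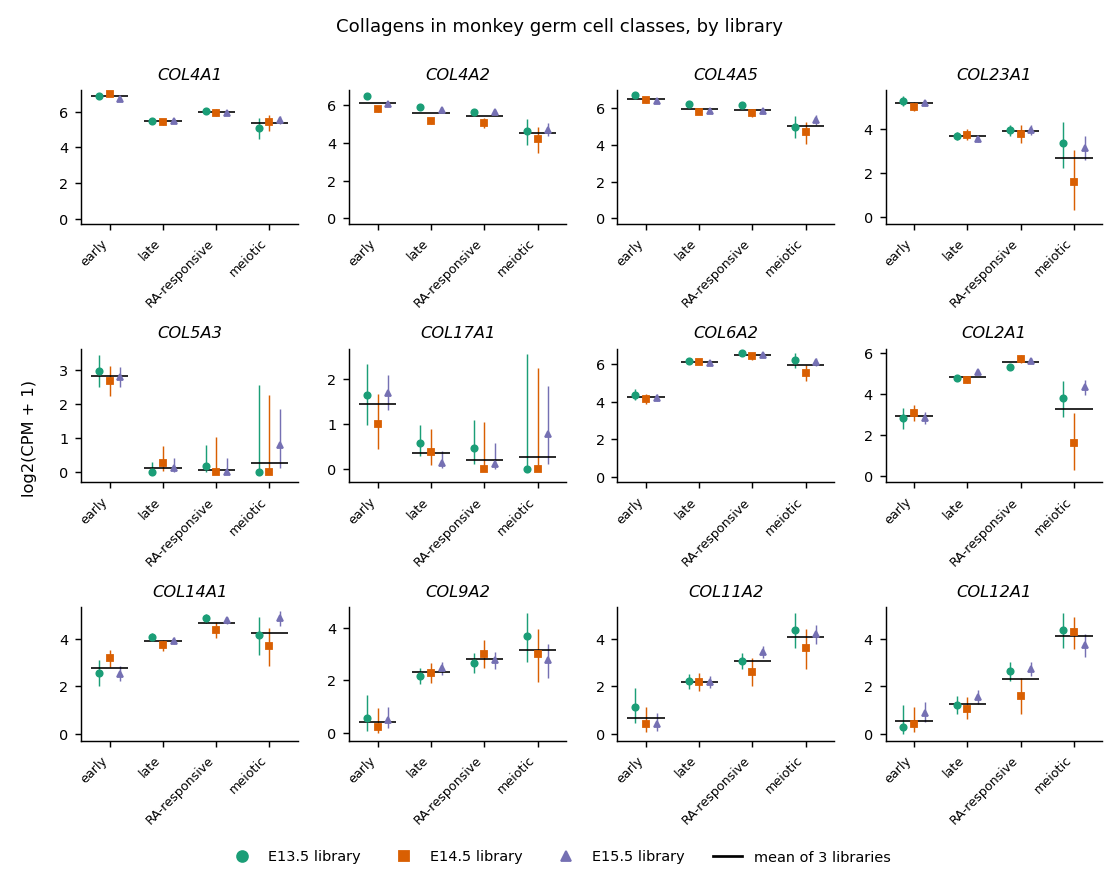
Level of 12 collagens as log2(CPM + 1) in the early, late, retinoic acid-responsive (RA-responsive) and meiotic-like germ classes, 1 point per library with its exact 95% interval (counting error only) and a line at the mean of the 3 libraries. COL4A1 is highest in the early class, COL6A2 is lowest there, and COL11A2 is highest in the meiotic-like class.

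From the late to the retinoic acid-responsive class the higher chains were mostly of low level. COL1A1 was at 12.5, 14.3 and 16.0 CPM in the late class and 23.1, 29.3 and 36.2 in the retinoic acid-responsive class (0.98 ± 0.12 SE, edgeR adjusted p = 7.6e-06), after 9.19, 9.56 and 8.63 CPM in the early class (late over early 0.22 ± 0.15 SE, edgeR adjusted p = 0.18; called at 0.71 with scaling by total UMIs alone and at 0.57 without barcodes that held a mouse marker UMI). COL14A1 was at 16.0, 12.3 and 14.2 and 28.1, 19.7 and 26.5 CPM (0.75 ± 0.15 SE, edgeR adjusted p = 0.00068). COL12A1 rose from 1.30, 1.07 and 1.96 to 5.18, 1.99 and 5.61 CPM (1.52 ± 0.27 SE, edgeR adjusted p = 0.00032) and was at 19.8, 18.2 and 12.3 CPM in the meiotic-like class. COL25A1 was at 1.67, 0.484 and 0.455 and 3.499, 1.71 and 2.45 CPM (1.56 ± 0.35 SE, edgeR adjusted p = 0.0019). In the retinoic acid-responsive class COL19A1 was at 5.18, 3.42 and 4.29 CPM (0.96 ± 0.28 SE, edgeR adjusted p = 0.011) and COL15A1 at 8.16, 7.12 and 8.59 CPM, against 4.16, 4.16 and 5.56 in the late class (0.71 ± 0.19 SE, edgeR adjusted p = 0.006). COL6A3 (0.77) and COL27A1 (0.50) were also higher on the log2 scale. COL9A3 was lower (-0.50 ± 0.18 SE, edgeR adjusted p = 0.036). The count of 14 calls rests on all 3 libraries: it was 9 without E13.5 and 7 without E15.5, in each case with 1 chain lower. Without E15.5 the calls of COL25A1 (1.16), COL11A2 (0.77) and COL6A2 (0.27) were lost, without E13.5 that of COL15A1 (0.61), and without either those of COL19A1, COL6A3, COL27A1 and COL9A3. Without barcodes that held a mouse marker UMI, the calls of COL11A2 (0.65), COL15A1 (0.56), COL27A1 (0.23) and COL9A3 (-0.51) were lost.

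Whether a chain's UMIs in germ barcodes exceed what mouse RNA leaves there was read from its level as a percentage of that in mouse barcodes, over the named germ classes. Mouse marker genes were at 0.190% (INHA), 0.497% (WNT4), 0.645% (TCF21) and 0.939% (AMHR2). COL3A1 (0.315%) and COL1A2 (0.556%) were in this range, and no expression by germ cells is read from them. Both were lower without germ barcodes that held a UMI of AMHR2, WNT4, TCF21 or PDGFRA (0.165% and 0.352%). COL8A1 was at 1.22%, just above the markers. COL1A1 (2.74%, 2.57% without those barcodes) and COL16A1 (2.49%) were above them. COL4A1 (83.4%), COL4A5 (152%), COL6A2 (97.8%), COL4A2 (1918%) and COL2A1 (2176%) were far above. These percentages compare reads of 2 species on monkey genes and are not ratios of expression.

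The genes that make, cross-link, bind and break down collagen were examined as 5 lists. Of 21 tested genes for collagen synthesis and processing, 15 were higher and 0 lower in the stromal-like than in the INHA-low state (14.1% and 17.4% of all genes), with a median log2 fold change of 1.02. PLOD2, a lysyl hydroxylase, was at 149 against 8.88 CPM (mean of 3 libraries, log2 4.15 ± 0.19 SE, edgeR adjusted p = 4.8e-16) and LOXL1, a cross-linking oxidase, differed by 3.44. In the UPK3B-positive state 1 of the 21 was higher and 12 lower than in the stromal-like state (13.2% and 11.4% of all genes), among the latter PLOD2 (-4.48 ± 0.27 SE, edgeR adjusted p = 3.7e-13) and SERPINH1, the collagen chaperone (-1.98 ± 0.21 SE, edgeR adjusted p = 2.5e-08). Over the INHA-low state 4 were higher and 0 lower (5.06% and 5.09%), led by LOXL1 (2.91 ± 0.30 SE, edgeR adjusted p = 6.0e-08). INHA-high over INHA-low had 3 higher and 2 lower (7.58% and 6.30%), with LOXL1 (3 UMIs against 41) and LOXL2 (-3.41) lower.

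Of 12 tested fibril-associated matrix genes, 9 were higher and 0 lower in the stromal-like than in the INHA-low state (14.1% and 17.4% of all genes, median of the list 3.83). They included the small leucine-rich proteoglycans decorin (DCN, 459.6 against 11.6 CPM, 5.54 ± 0.23 SE, edgeR adjusted p = 1.1e-16) and lumican (LUM, 6.24). INHA-high over INHA-low had 1 of the 12 higher and 3 lower (7.58% and 6.30% of all genes, median of the list -0.43). The higher one was THBS1, thrombospondin 1, at 989 CPM in the INHA-high and 295 in the INHA-low state (1.69 ± 0.14 SE, edgeR adjusted p = 4.7e-09). The UPK3B-positive state had 4 of the 12 higher and 2 lower than the INHA-low state (5.06% and 5.09% of all genes), with TNC, tenascin C, among the higher (22 UMIs against 1). It had 0 higher and 10 lower than the stromal-like state (13.2% and 11.4% of all genes). Against 14.1% and 17.4% of all genes, 7 of 10 other basement membrane genes were higher and 1 lower in the stromal-like than in the INHA-low state (median 1.93), led by NID1, which links laminin and type IV networks (4.85 ± 0.30 SE, edgeR adjusted p = 3.7e-13). Of 7 degradation genes 4 were higher and 2 lower (median 1.21), led by MMP2, which cleaves type IV (4.95 ± 0.29 SE, edgeR adjusted p = 8.5e-14). Of 5 receptors 4 were higher and 1 lower (median 2.79), led by DDR2, which binds fibrillar collagens (43.3 against 3.04 CPM, 3.81 ± 0.30 SE, edgeR adjusted p = 3.6e-11). The receptor DDR1 was higher in the UPK3B-positive than in the stromal-like state (2.06 ± 0.23 SE, edgeR adjusted p = 4.7e-08) and DDR2 lower (-4.78).

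In germ cells 13 of 26 tested synthesis genes were higher and 9 lower in the late than in the early class, where 34.1% of all genes were higher and 34.3% lower. Those higher were led by ADAMTS3, a procollagen peptidase (3.03 ± 0.26 SE, edgeR adjusted p = 1.0e-08), LOX (2.63) and P4HA2, a prolyl hydroxylase subunit (124 against 17.5 CPM). Of 12 other basement membrane genes 4 were higher and 5 lower, shares near those of all genes, with LAMA1, the laminin chain of early basement membranes (3.68 ± 0.19 SE, edgeR adjusted p = 1.1e-11), and NID1 (2.99) higher and NID2 (-2.86 ± 0.19 SE, edgeR adjusted p = 3.4e-10) lower. Among the receptors the collagen-binding integrin chain ITGA1 was lower in the late class (-6.36 ± 0.30 SE, edgeR adjusted p = 3.9e-12). From the late to the retinoic acid-responsive class 8 of the 12 basement membrane genes were higher and 1 lower (17.6% and 20.4% of all genes), led by LAMA4 (2.72 ± 0.30 SE, edgeR adjusted p = 3.1e-06) and NID1 (1.62 ± 0.15 SE, edgeR adjusted p = 5.6e-07). The fibril-associated genes had 4 higher and 0 lower of 9 (the same shares of all genes), with FN1, fibronectin, at 1.38 ± 0.16 SE, edgeR adjusted p = 4.0e-06.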

How the data were processed

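The authors deposited UMI counts per gene and called barcode for 3 libraries. Per the file headers, these are output of Cell Ranger 6.0.1. The build of the monkey genome is not given in the sources used here, nor is its annotation. Barcode and feature names carry no measurement. Of 9282 features named by locus, 669 took a symbol from the RefSeq table for the species, UPK3B among them. Barcodes were selected as stated in the report and clustered within species (scanpy 1.11.5, 2000 variable genes, 30 components, 15 neighbours, Leiden resolution 1), with collagens, matrix lists and mitochondrial genes left out. Clusters were named from marker lists, and the INHA split was set at the INHA level of all supporting-like clusters together. No doublet caller was run, and clusters with mixed markers stayed unnamed. Counts were summed per library and state, and tested with edgeR 4.0.16 (quasi-likelihood, TMM, filterByExpr, library block, Benjamini-Hochberg over all genes, threshold 0.05); DESeq2 1.42.0 and other settings were tried. The test was checked on simulated counts. Each edgeR SE is the log2 fold change, without sign, over the square root of the F statistic. CPM uses total UMIs. Floors are 3 counts, and intervals cover counting error only. Every collagen past the filter could be named; the up to 10 with the largest log2 fold change per comparison that were called and moved alike in every library, COL1A1, COL1A2, COL3A1, COL4A1 and COL4A2 were to be given in full, and up to 3 per matrix list. The numbers of the single replicate per stage pair no samples across stages. Members and lists were chosen with earlier results of these data known. Sequences were not used here.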

Additional observations from a re-analysis of the deposited data

Results flagged for a closer look

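A total of 322 germ barcodes fell in 3 clusters that no germ class took in, and some collagens had a higher level (CPM) there than in any named germ class, which serve as the comparison. In the cluster of 136 barcodes whose leading genes include the mouse-side gene INHA, COL1A1 was at 93.7 CPM, COL1A2 at 102 CPM, COL3A1 at 48.8 CPM, COL16A1 at 11.6 CPM and COL8A1 at 8.31 CPM. COL1A1, COL1A2 and COL3A1 are highest in the stromal-like of the 4 mouse states, and COL8A1 in the INHA-high one; whether these barcodes hold a mouse cell beside the germ cell was not tested.

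In the cluster of 76 barcodes led by NPY and TP53I3, COL5A1 was at 20.5 CPM and COL18A1 at 8.73 CPM. In the cluster of 110 barcodes led by TKTL1, PIWIL4 and SOHLH1, germ cell genes, COL18A1 was at 11.4 CPM, COL3A1 at 8.45 CPM, COL11A1 at 5.11 CPM and COL8A2 at 4.13 CPM. Mouse marker genes were raised in this cluster too, with INHA at 20.4, WNT4 at 12.8, TCF21 at 8.65 and AMHR2 at 6.09 CPM. Their means over the named germ classes were 2.87, 2.94, 1.49 and 2.49 CPM. Whether mouse RNA accounts for any collagen level in this cluster was not tested. COL18A1, the multiplexin that endostatin is cut from, was below 6 CPM in each named class of each library.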

How the results depend on the processing

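The number of collagens called ranged over the settings from 8 to 13 for INHA-high over INHA-low (12 in the report), 17 to 26 for stromal-like over INHA-low (21), 4 to 9 for UPK3B-positive over INHA-low (9), 9 to 18 for UPK3B-positive over stromal-like (17), 17 to 27 for late over early (21) and 7 to 17 for retinoic acid-responsive over late (14). Leaving out 1 library gave 10 in each case, 17 to 20, 6 to 9, 12 to 17, 17 to 22 and 7 to 15, in the same order. The lone values of 4 and 9 for the UPK3B-positive state came with states set by UMIs of single genes, a gate that took in 90 of its 301 barcodes and put 212 stromal-like and 89 UPK3B-positive barcodes among 1167 INHA-low ones. Under this gate COL12A1 (INHA-high over INHA-low, -0.18), COL4A5 (stromal-like over INHA-low, -0.11), COL1A2 (-0.72) and COL1A1 (-0.38, both UPK3B-positive over INHA-low) changed sign. The libraries carry no replicate numbers that pair samples across stages, and the library itself is the block; without this replicate block late over early called 21, retinoic acid-responsive over late 11 and the mouse comparisons 10, 19, 7 and 15 collagens. Between days over all mouse barcodes, E14.5 over E13.5 had 1 chain past the rule in place of 0 with TMM factors, DESeq2 size factors, equal weight to each state or at least 3000 UMIs. E15.5 over E13.5 had 1 in place of 3 with a pseudocount of 5 or equal weight. E15.5 over E14.5 had 0 in place of 1 with equal weight and 5 without mixed clusters (3 higher, 2 lower). Leaving out mixed clusters was an alternative chosen after seeing the data. So were leaving out shared barcodes, scaling by total UMIs alone and counting the unnamed mouse cluster led by germ cell genes as INHA-high. For single chains 1498 cases counted as the same. Between states or classes this means the same side of the threshold, and a change of sign with no call in either setting also counted so. Between days it means a ratio inside its counting interval. A call was lost in 119 cases and gained in 10, and a called difference changed sign in 4. Between days 31 ratios left the interval, some with a change of sign. COL1A1, at 589 CPM at E13.5 and 418 at E14.5, had a log2 ratio of 0.30 with equal weight to each state. Depth limits the UPK3B-positive state most: 3 counts correspond to 10.4, 15.8 and 1.67 CPM in its libraries. The cause of these changes was not tested.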

Other observations

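The 61 LTF/EHF-positive mouse barcodes, too few per library for the comparisons, carried little collagen: COL1A2 was at 62.9 CPM, COL1A1 at 48.9 CPM, COL4A5 at 26.2 CPM, COL3A1 at 22.7 CPM and COL4A1 at 17.5 CPM, each on 36 UMIs or fewer. The largest unnamed mouse cluster held 382 barcodes, 353 of them at E15.5, and had germ cell genes such as PAGE2B among its leading genes. It had COL1A2 at 89.9 CPM, COL8A1 at 67.1 CPM, COL6A2 at 54.1 CPM and COL4A5 at 43.8 CPM.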
